A study of Mus musculus with 2 samples.

Results

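Trp53, which encodes p53, was followed here with its inhibitors Mdm2 and Mdm4 and with the target genes Ccng1, Sesn2, Trp53inp1, Plk2, Phlda3, Perp and Ei24, in 2 mouse tumours. The 10 genes were chosen by name, as every non-control spot that carries one of these gene names on the array, out of 16358 genes with a symbol. They are represented by 19 probes on 37 spots. The tumours, tumour 2 and tumour 1, grew after 1000000 cells of the mouse line RMS3 in 200 µl of buffer had been injected under the skin of male C57BL/6J mice, and were taken 2 weeks later. The labels call RMS3 a PRMS line without spelling this out, and the sources used here give no Trp53 genotype for it, so whether the transcript encodes an intact protein was not analysed here. Both tumours come from 1 cell line and carry the same treatment, there is no untreated or cultured control, and each tumour was hybridised to 1 single-colour Agilent array. Host cells are mouse cells too, so a signal cannot be assigned to tumour or host cells, and fewer cells of a type cannot be told apart from less RNA per cell.

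p53 is a transcription factor that is kept scarce by Mdm2, a ubiquitin ligase that marks it for destruction, and by Mdm4, a relative of Mdm2 that masks its activation domain. Stress signals free p53 from both, and p53 then switches on genes that stop the cell cycle, repair damage or start cell death. Mdm2 is itself such a target, which closes a feedback loop. In muscle-lineage tumours, p53 loss and MDM2 gene amplification are both well known.

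Values are levels, the log2 of the processed signal relative to the 75th percentile of the array, and differences between levels, tumour 2 minus tumour 1. A level can be set against that of the same probe in the other tumour, not against another probe. Since every difference sets 1 tumour against 1 tumour, none could be tested against replicates, and having only 2 arrays limits how precise it is. On array 1, 1128 spots carry an outlier flag of the scanner software, against 69 on array 2. The main values therefore use the 72.2% of spots that lie more than 2 rows or columns from a flag of array 1 and from a high local background on array 2. Among 175 probes printed 10 times, the SD of a spot there was 0.11 in tumour 2 and 0.23 in tumour 1, and that of a spot's difference 0.23 (log2). This is error within an array and does not cover error between arrays.

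Of 10 markers of the skeletal muscle lineage, 7 were well above background on both arrays away from flags, whereas Myf5 and Pax7 were so on neither. The summed signal of those 7 was 9.45 in tumour 2 and 4.99 in tumour 1, in multiples of the 75th percentile. Most of it was Myh8, with a level of 2.99 in tumour 2 and 2.02 in tumour 1. This rests on 1 of its 4 probes, the only one that entered the value. Des differed by 1.24, with an SD of 0.62 over 8 spots, and Myh3 by 1.07, while Myod1 differed by -0.35 and Myf6 by -0.48. Myod1 was dim, at levels of -5.59 in tumour 2 and -5.24 in tumour 1. The lowest levels well above background were -6.19 and -5.78, in the same order. Chrna1, bright but without a spot away from flags, had a level of 4.81 in tumour 2 and 5.29 in tumour 1 with all unflagged spots, where 4 muscle markers were higher and 4 lower in tumour 2. The summed signal was 9.23 and 13.7 for 5 fibroblast markers and 2.10 and 3.64 for 5 endothelial markers, tumour 2 first. It was 7.13 and 7.39 for 4 of 6 macrophage, 39.9 and 23.6 for 3 of 4 erythroid and 0.0367 and 0.0311 for 1 of 4 T cell markers. Bright probes lead such sums, Emcn the endothelial and Cd14 the macrophage sum. All 5 endothelial markers were lower in tumour 2, Emcn by -0.97 but Pecam1 by -0.03. Of the macrophage markers 1 was higher and 3 lower, Cd14 by -0.03 and Adgre1 by -0.64. The T cell markers Cd4 and Cd8a were well above background on neither array away from flags. The fibroblast markers Dcn and Mfap5 differed by -1.12 and -1.95, where Mfap5 was dim in tumour 2, at a level of -5.31. The part of these shifts in the differences given below was not tested.

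p53 acts through a response element that consists of a pair of decamers. The decamer consensus was searched in the RefSeq windows of GRCm38.p6, which hold 250 bases before and 50 after a gene start. It was found in the windows of 4 of the 8 members with an entry, and in 9.55% of the 27025 genes in the table. These 4 stretches are shown because each holds a single match to the decamer near the start of a gene whose levels follow. They are read in the direction of the gene, end before its start, and have the decamer in capitals.

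Mdm2, chr10:117710890-117710989, minus strand: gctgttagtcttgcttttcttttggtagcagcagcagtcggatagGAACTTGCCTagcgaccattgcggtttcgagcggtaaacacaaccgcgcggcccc
Trp53, chr11:69580239-69580338, plus strand: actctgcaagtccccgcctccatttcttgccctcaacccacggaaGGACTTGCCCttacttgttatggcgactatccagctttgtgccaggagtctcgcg
Ccng1, chr11:40755417-40755516, minus strand: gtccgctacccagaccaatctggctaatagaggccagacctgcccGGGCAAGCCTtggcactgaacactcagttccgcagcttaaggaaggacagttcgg
Ei24, chr9:36797335-36797389, minus strand: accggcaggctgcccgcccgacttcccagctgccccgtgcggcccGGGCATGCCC

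The consensus reads the same on both strands, and a match is a description of letters, not a bound site. None of the members' windows held a pair of decamers up to 13 bases apart, against 0.0731% of all 32851 windows. The well known p53 elements of Mdm2 lie in its first intron, beyond the window. No decamer was found in the windows of Mdm4, Sesn2, Plk2 and Phlda3, and the table has no entry for Trp53inp1 and Perp. Of the 4 genes with a decamer, Mdm2 was 0.94 higher in tumour 2 while Trp53 and Ccng1 differed by 0.21 and -0.12, and Ei24, measured near a flag only, by -0.03 on the same scale. Of the 4 without one, Sesn2 was 0.80 higher while the others lay between 0.01 and 0.20.

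All 10 genes were transcribed at a measurable level in both tumours. Each of the 37 spots was well above background on both arrays, and no spot was saturated. Away from flags, 8 of the 10 genes kept a spot, and all 8 were above background on both arrays, against 74.3% of 12976 genes with a symbol. Trp53inp1 and Ei24 had spots only at or near flags. Among the 8, 7 were higher in tumour 2, where 53.7% of 9642 genes were. With the deposited values unscaled, 5 of the 8 were, against 37.6% of all genes. Among the 8, 1 gene was at least 2-fold apart, against 4.46% of all genes, and it was higher in tumour 2, as were 2.72% of all genes. No member was at least 2-fold higher in tumour 1, as were 1.74% of all genes. The median difference of the 8 was 0.20, against 0.03 over all genes, whose SD was 0.51. Of all genes at least 2-fold apart, 262 were higher in tumour 2 and 168 in tumour 1, a split that turned to 187 and 262 when the deposited values were not scaled.

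With all unflagged spots, those near flags included, all 10 members had a value, where 71.2% of 16019 genes were above background on both arrays. Then 4 of the 10 were higher in tumour 2, against 37.1% of 11408 genes, and the members' median was -0.04, against -0.13 over all genes. The gene at least 2-fold apart was then Mdm2, against 8.57% of all genes in either direction, 5.41% higher in tumour 2 and 3.16% higher in tumour 1.

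**Figure D1:**
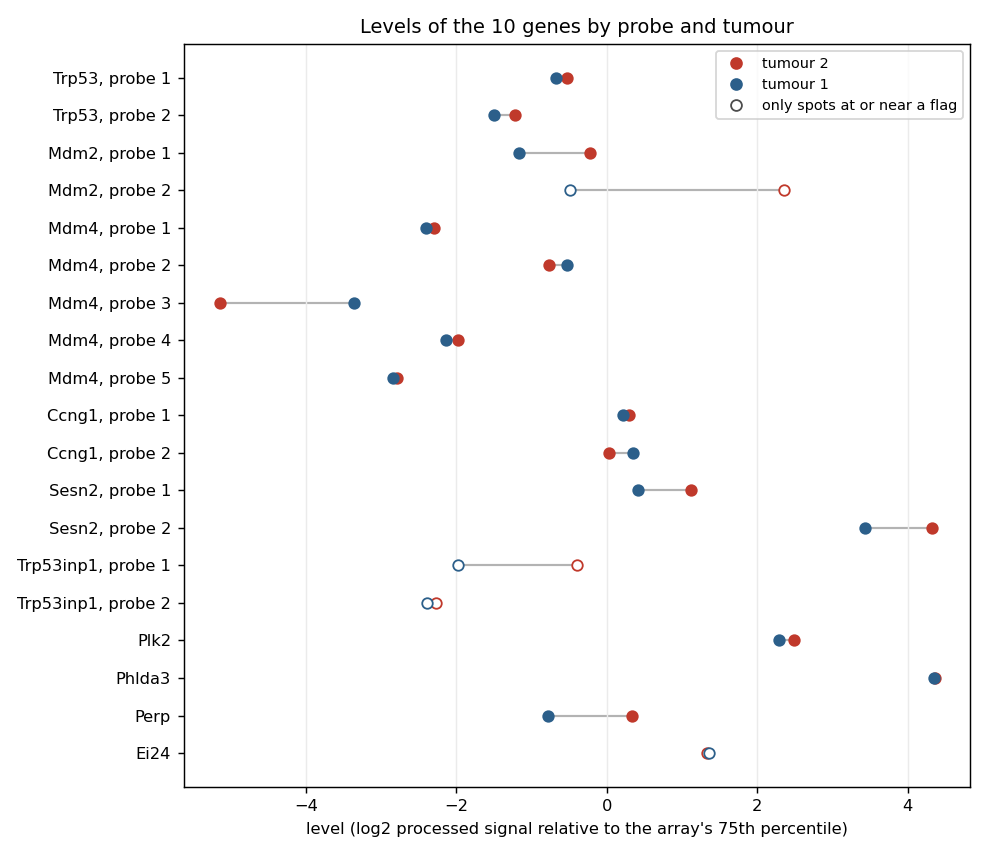
Level of each probe of the 10 genes (log2 processed signal relative to the 75th percentile of the array) in tumour 2 (red) and tumour 1 (blue), as the mean over the probe's spots away from flags, or over all its spots where none is away from flags (open symbols). Mdm2, Sesn2 and Perp are apart in the direction of tumour 2 with every probe, the symbols of Phlda3 and Ei24 nearly coincide, and probe 3 of Mdm4 is the only one of its 5 probes far apart.

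Trp53 itself lay close together in the tumours, above 71.8% of all genes by its difference. Its repeat probe had signals of 608 to 639 in tumour 2 with a median of 620.2 on the 6 spots away from flags, against 583 to 715 with a median of 604.5 in tumour 1. The ranges overlapped. The level of this probe was -0.54 ± 0.03 in tumour 2 and -0.68 ± 0.11 in tumour 1 (SD over 6 spots), and the difference was 0.15. Its other probe had a signal of 385 in tumour 2 and 352 in tumour 1, a log2 difference of 0.27. The median over both probes, 0.21, stayed between 0.07 and 0.24 under 11 alternative settings. The 4 remaining spots of the repeat probe, near flags, gave 618 to 692 in tumour 2, but 67.2, 319, 531 and 719 in tumour 1. The dimmest of them alone differed by 3.34, and the median difference of the 21 spots around it was 0.66.

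Mdm2 was higher in tumour 2 with each of its probes. The repeat probe had signals of 700 to 860 with a median of 769.6 in tumour 2 on its 8 spots away from flags, against 396 to 500 with a median of 449 in tumour 1. The lowest spot of tumour 2 was brighter than the highest of tumour 1. The difference was 0.94 ± 0.07 (SD over 8 spots), or 1.91-fold, with single spots between 0.87 and 1.04. The 2 spots near flags, at 0.96 and 0.83, fell in with the others. Among the 175 probes printed 10 times and measured away from flags this was the third largest difference in size, whereas the Trp53 probe took place 122.

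**Figure D2:**
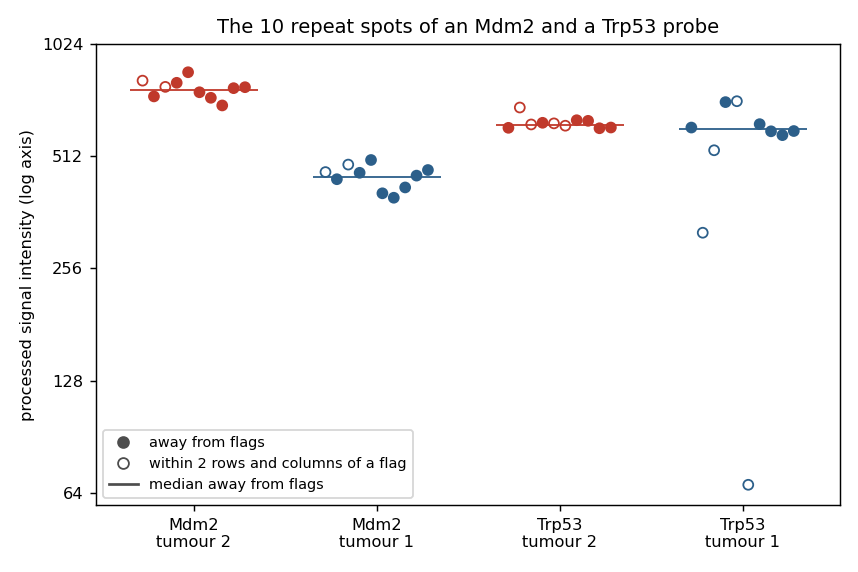
Processed signal intensity (log axis) of the 10 spots of the repeat probes of Mdm2 and Trp53 in tumour 2 (red) and tumour 1 (blue). Open symbols lie within 2 rows and columns of a flag, and lines give the median of the other spots. The Mdm2 spots of tumour 2 all lie above those of tumour 1, and the Trp53 spots overlap apart from single dim spots near flags in tumour 1.

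The second Mdm2 probe was further apart than the first, with a signal of 4630 in tumour 2 and 707 in tumour 1. Its only spot lies 1 position from a flag and differed by 2.85, while the 25 spots around it had a median difference of 0.12. The probes thus agreed in direction and not in size, and with this spot the gene's difference was 1.69 in place of 0.94. The cause was not tested, and the sequence of the probes was not used here. Under the other 10 settings the Mdm2 difference was 0.80 to 0.95.

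Scaling by 1 factor per array cancels when the difference of one probe is subtracted from that of another. Between the repeat probes, Mdm2 was 0.79 ± 0.05 (SE over 8 and 6 spots) further towards tumour 2 than Trp53. By these probes, this is a 1.73-fold shift of the inhibitor's transcript relative to that of p53. The SE covers error within an array only, not that between arrays or between probes of a gene. Over the median of each gene's probes the shift was 0.73, and 1.47 with all unflagged spots, where the second Mdm2 probe enters.

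Mdm4, the second inhibitor, differed little with 4 of its 5 probes. Probes 1, 2, 4 and 5 differed by 0.11, -0.23, 0.16 and 0.06, with signals of 130 to 529 in tumour 2 and 138 to 686 in tumour 1. Probe 3 gave 25.4 in tumour 2 and 96.3 in tumour 1, a log2 difference of -1.78. Its level in tumour 2, -5.15, compares with -6.19 as the lowest level well above background on that array. The median over the 5 probes was 0.06, and its sign turned under 4 of 11 settings.

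Among the target genes that restrain the cell cycle or feed back on p53 or its pathway, Ccng1, Plk2 and Phlda3, none was 2-fold apart. Ccng1 encodes cyclin G1, which brings a phosphatase to Mdm2. Its probes had signals of 1107 and 922 in tumour 2, against 1150 and 1270 in tumour 1, and differed by 0.09 and -0.32. The median, -0.12, was above 0 under 2 of 11 settings. Plk2, a kinase of centriole duplication, had a signal of 5052 in tumour 2 and 4860 in tumour 1, a log2 difference of 0.20 that was -0.00 with all unflagged spots. Phlda3, a small protein that blocks the activation of the kinase Akt at the membrane, had 18483 in tumour 2 and 20200 in tumour 1. Its difference was 0.01 and took either sign across settings, down to -0.18. Each of the last 2 genes rests on 1 spot.

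Sesn2 was higher in tumour 2. It encodes a sestrin, which lowers mTORC1 activity when amino acids are short and protects from oxidants, and it responds to Atf4 as well as to p53. Probe 1 gave 1954 in tumour 2 and 1330 in tumour 1, a log2 difference of 0.70. Probe 2 gave 18069 in tumour 2 and 10700 in tumour 1, a log2 difference of 0.90. Both spots lie at least 9 positions from a flag and the spots around them had median differences of -0.06 and 0.06. The median of 0.80, or 1.74-fold, placed Sesn2 above 95.4% of all genes, and it was 0.60 to 0.90 under 11 settings. It did not reach 2-fold under any of them.

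Perp was the member that reached 2-fold. Perp is a membrane protein of desmosomes that p53 induces in cell death and that the p53 relative p63 maintains in stratified epithelium. Its single spot, 21 positions from a flag, had a signal of 1140 in tumour 2 and 577 in tumour 1. The difference was 1.12, or 2.18-fold, above 98.1% of all genes, and the 30 spots around it had a median difference of 0.06. It was 0.93 with all unflagged spots, 0.96 after normexp background correction and 0.98 without scaling, each below 2-fold. Of 6 keratinocyte markers, 3 were higher in tumour 2 as well. These 3 were above background on both arrays away from flags, with a summed signal of 1.14 in tumour 2 and 0.177 in tumour 1. Krt5 differed by 3.55, Krt14 by 3.64 and the desmosome gene Dsp by 0.81, while Trp63, the gene of p63, reached that limit on neither array. In tumour 1, Krt5 and Krt14 had levels of -5.21 and -4.26, where the lowest level well above background was -5.78. The Dsp value rests on 1 of its 4 probes. Away from flags, Krt10 passed the background limit only on array 2, but with all unflagged spots it was so in both, at a level of 1.46 in tumour 2 and 1.53 in tumour 1, and it is not in the sum. Krt15 had no spot away from flags. The part of these markers in the Perp difference was not tested.

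**Figure D3:**
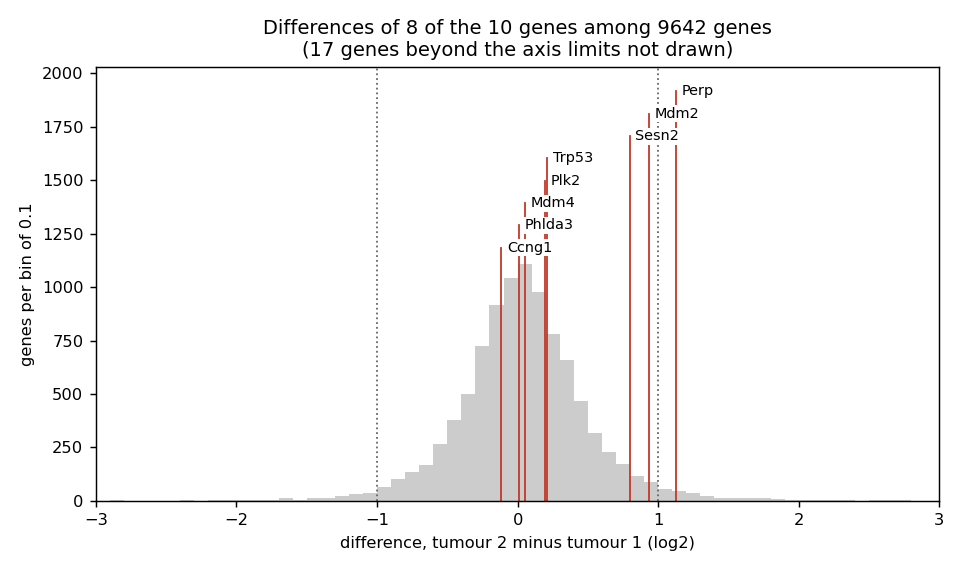
Distribution of the difference (log2, tumour 2 minus tumour 1) over 9642 genes with a symbol, in bins of 0.1, with the 8 measured members as red lines and 2-fold as dotted lines. Sesn2, Mdm2 and Perp lie in the right flank, at 0.80, 0.94 and 1.12, and the other 5 between -0.12 and 0.21.

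For Trp53inp1 and Ei24 the values rest on spots at or near flags and are given on the same scale. Trp53inp1 encodes a stress protein that takes part in autophagy and helps p53 activate cell death genes. Its probe 1 gave 687 in tumour 2 and 252 in tumour 1, a log2 difference of 1.59, but this spot carries an outlier flag on array 1 and the 26 spots around it had a median difference of 1.91. Probe 2 lies 2 positions from a flag and gave 186 in tumour 2 and 190 in tumour 1, a log2 difference of 0.11 where the spots around it had 0.19. With all unflagged spots on their own scale, which gives the gene its only summary value, the difference was -0.08. The part of the surroundings in the difference of probe 1 was not tested. Ei24, a membrane protein of the endoplasmic reticulum needed in autophagy, gave 2267 in tumour 2 and 2550 in tumour 1, a log2 difference of -0.03 with 0.21 around it, and of -0.23 on the scale of all unflagged spots.

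**Figure D4:**
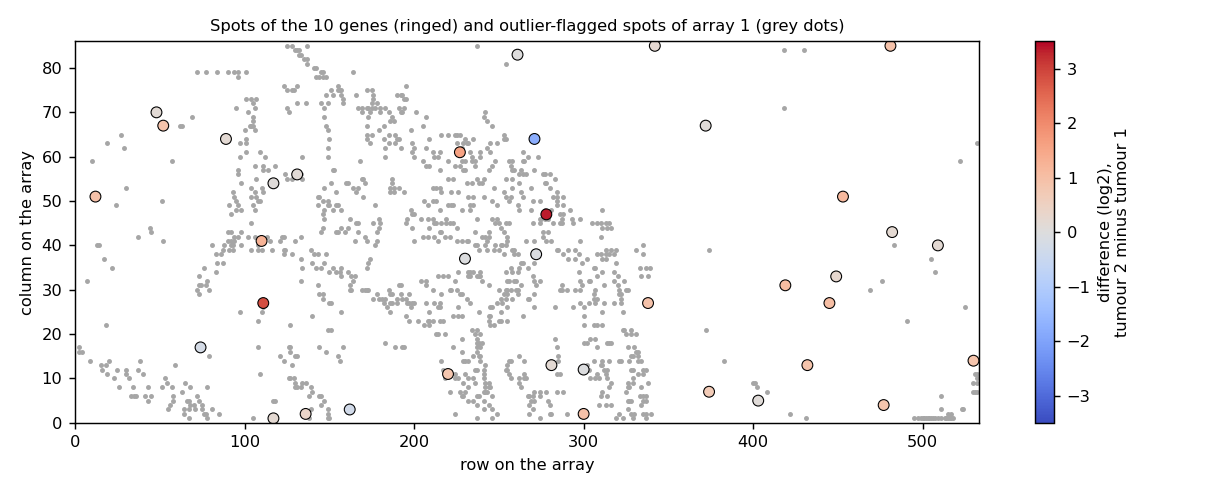
Position by row and column of the 37 spots of the 10 genes (ringed, coloured by the difference in log2, tumour 2 minus tumour 1) and of the outlier-flagged spots of array 1 (grey dots). The most strongly coloured spots, those of Trp53 at 3.34 and of the second Mdm2 probe at 2.85, lie next to flagged spots, while the Mdm2 repeat spots are of one colour across the array.

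Regulators of p53 differed in both directions. Of 19 listed regulators and partners of p53, 18 were found on the array. All 18 were above background on both arrays away from flags, against 74.3% of 12976 genes with a symbol. In tumour 2, 12 were higher and 6 lower. None was 2-fold apart, where 4.46% of all genes were, and the median of the 18 was 0.09, against 0.03 over all genes. With all unflagged spots, 6 were higher and 12 lower, while the share of all genes higher in tumour 2 was 53.7% away from flags and 37.1% with all unflagged spots. The damage kinase gene Chek2 differed by 0.59, Hipk2, a kinase that phosphorylates p53, by 0.52 and the acetyltransferase gene Crebbp by 0.62. Chek2, with 1 of its 2 probes, and Hipk2 were dim, at levels of -5.15 and -5.18 in tumour 1. The lowest level well above background on that array was -5.78. Trim24, a ubiquitin ligase for p53, differed by -0.84. Cdkn2a, whose product p19Arf blocks Mdm2, differed by -0.02 over 7 spots, and the ribosomal protein genes Rpl5 and Rpl11, whose products also bind Mdm2, by 0.12 and 0.08. Usp7, which removes ubiquitin from p53 and Mdm2, differed by 0.20, and the phosphatase gene Ppm1d, itself a p53 target, by -0.05.

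Of 27 further p53 target genes 26 were found on the array. The 21 with a spot away from flags were all above background on both arrays, against 74.3% of 12976 genes with a symbol. In tumour 2, 12 were higher and 9 lower, with a median of 0.10, and with all unflagged spots 10 were higher and 16 lower. These shares lie near the 53.7% and 37.1% of all genes that were higher in tumour 2 in the same settings. The 2 genes at least 2-fold apart, where 4.46% of all genes were, were both higher in tumour 2. Without the filter on dim probes the 2 genes at least 2-fold apart were Ddit4 and Fas, and the direction of Fas in that setting is not given here. Ddit4, an inhibitor of mTORC1 that also responds to hypoxia, had a level of 6.96 in tumour 2, against 5.77 in tumour 1, and so differed by 1.19. Tigar, a phosphatase that diverts sugar from glycolysis, had -3.75 in tumour 2, against -4.76 in tumour 1, and so differed by 1.01. The Tigar value rests on 1 of its 2 probes, and the lowest level well above background on array 1 was -5.78. Gls2, a mitochondrial glutaminase, differed by 0.84. In the other direction the cell cycle inhibitor Rprm differed by -0.85 and the death receptor Fas by -0.70. The cell cycle inhibitor Cdkn1a differed by 0.16 over 7 spots away from flags, and by 1.65 with all unflagged spots. Bax, a pore former of cell death, differed by 0.32 and Bbc3, its activator, by 0.01.

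**Figure D5:**
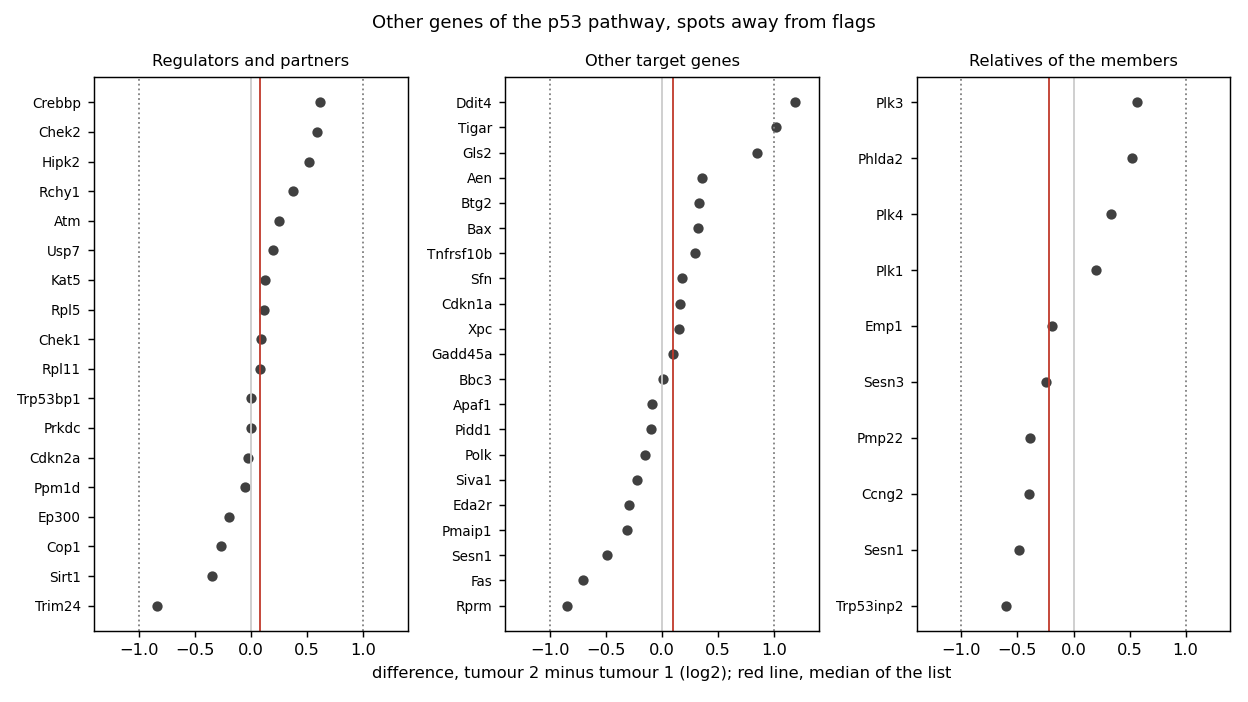
Difference (log2, tumour 2 minus tumour 1) of 18 regulators and partners of p53, of 21 other target genes and of 10 relatives of the members, spots away from flags. Dotted lines mark 2-fold and the red line the median of each list. Ddit4 and Tigar are beyond the dotted lines, and the medians lie at 0.09, 0.10 and -0.22.

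Close relatives of Sesn2 and Perp were lower in tumour 2. Of 13 relatives, 11 had a spot away from flags and 10 were above background on both arrays, against 74.3% of 12976 genes with a symbol. In tumour 2, 4 were higher and 6 lower, where 53.7% of all genes were higher. Their median was -0.22, against 0.03 over all genes. Trp53inp2 had the largest difference in size, -0.61. Sesn2 differed by 0.80, against -0.49 for Sesn1 and -0.24 for Sesn3. Perp differed by 1.12, against -0.39 for Pmp22 and -0.19 for Emp1, members of the same superfamily of 4-pass membrane proteins. The differences of Sesn3 and Emp1 are near 0.23, the SD of a spot's difference, in size. Plk2 differed by 0.20, against 0.20 for Plk1, 0.56 for Plk3 and 0.33 for Plk4. Ccng1 differed by -0.12 and Ccng2 by -0.39, and Phlda3 by 0.01 and Phlda2 by 0.52. Phlda1 and Trp73 had no spot away from flags. With all unflagged spots Trp73 differed by 0.53 and Phlda1, on 1 spot, by 9.67, at levels of 6.28 in tumour 2 and -3.39 in tumour 1. In that setting 5 relatives were higher in tumour 2 and 7 lower, and 1, Phlda1, was at least 2-fold apart, against 8.57% of all genes.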

How the data were processed

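Total RNA of each tumour was labelled with Cy3 from 1.0 µg, per the labels' protocols. The authors deposited intensity values made with Agilent Feature Extraction, which the file headers give as version 9.1.3.1 and the submitters' processing notes as 8. Detrending, both spatial and multiplicative, was switched on per the file headers. The deposited value table held the same processed signal intensity at all 45018 spots. Genome build and probe sequences were not given in the sources used here. The share of non-control spots well above background was 66.1% for tumour 2, against 62.3% for tumour 1.

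Spots of a probe were averaged after log2 and scaling to the 75th percentile of the spots used. Detection of a probe required that 50% or more of its spots passed the scanner software's limit over background, and a gene's difference was the median over its probes detected on both arrays. Names came from the file of tumour 2, and for genes other than the members from RefSeq accessions where they matched. Alternatives were other sets of spots, normexp (offset 50), quantile, loess (span 0.3) and other scalings, and other filters. The text could name all members, any gene of the pathway lists and the markers, and names every gene of the pathway lists at least 2-fold apart away from flags. The members, the lists and the main setting were chosen with earlier results of these data known. Python 3.11.15 and R 4.3.3 with limma 3.58.1 were used, and the procedure was tested on simulated data.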

Additional observations from a re-analysis of the deposited data

How the results depend on the processing

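No paired analysis was possible because the design has 1 group of 2 tumours and no second group to pair them with. The median difference over all genes was 0.03 in the main setting, -0.13 with all unflagged spots and -0.11 without scaling, so differences in those 2 settings are to be read against that shift. The count of members at least 2-fold apart, 1 of 8, was 0 of 8 after normexp correction and 0 of 8 without scaling. With all unflagged spots it was again 1, of 10, but for Mdm2 in place of Perp. The count over all genes, 430 of 9642, was 978 of 11408 with all unflagged spots. It was 205 of 5607 in the lower rows, where fewer genes were measured, and 175 of 9642 after normexp correction. Without the filter on dim probes it was 990 of 13382, and among the brighter 50% of probes 118 of 5974. Of the regulators and other target genes of p53, 2 were at least 2-fold apart in the main setting. With all unflagged spots 4 were (Cdkn1a, Gtse1, Rchy1 and Rprm). The count was 0 in the lower rows, where the number of these genes still measured is not given here. It was 1, Ddit4, after normexp correction, without scaling and among the brighter probes. Without the filter on dim probes the count was again 2, with Fas in place of Tigar. The cause was not tested. The differences of Trp53, Mdm2, Sesn2 and Perp were above 0 in all 11 alternatives run, which are not independent of each other. The settings that change only the choice or filter of probes use the same spots for Mdm2 and Perp. Their values there, 0.94 and 1.12, could therefore not move. The level of each member without replicate 1 or 2 is the value of the other tumour. Settings added after the results of the others were seen gave 0.93 for the Mdm2 repeat probe alone and 2.85 for the second Mdm2 probe alone. Mdm4 without its dimmest probe gave 0.08.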
